A study of Rattus norvegicus with 16 samples.

Results

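The mRNA response of the injured rat sciatic nerve was compared between 3 and 7 days post injury (DPI), by asking for each gene whether its injury effect differed between the days. The injury effect at 1 day is the log2 level in the injured nerves minus that in the contralateral nerves, and the difference analysed is the effect at 7 DPI minus the effect at 3 DPI. All 16 arrays of the series entered, 4 in each of 4 groups (contralateral 3 DPI, injured 3 DPI, contralateral 7 DPI and injured 7 DPI), and 18166 genes with 1 probe set each were tested. The animals were male Sprague Dawley rats of 6 weeks. The injured groups held the distal sciatic nerve after a resection on one side, a surgery meant to leave the distal stump without regrowing axons. The contralateral groups held the uninjured sciatic nerve of the other side, taken from animals that had themselves been operated on and given ketoprofen or meloxicam and buprenorphine, so neither contralateral group is a nerve from an unoperated rat. The labels call the 4 arrays of a group biological replicates but do not tie a nerve to an animal, so the p-values measure the spread between these arrays. RNA came from whole nerves, so for every gene below fewer cells of a type and less RNA per cell cannot be told apart.

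When a nerve is cut, the axons beyond the cut break down, a process called Wallerian degeneration. Schwann cells, the glia that wrap the axons, shut down myelin genes, turn on genes of a repair state and divide, while macrophages enter and clear myelin debris. Mesenchymal cells of the nerve sheath and the endoneurium also divide and lay down matrix. In a stump that axons cannot reach, Schwann cells stay without the axonal signals that maintain myelin.

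The arrays measured each gene as a log2 value on a scale shared by all 16 arrays, and values of different genes are not set against each other because probes differ in brightness. Arrays of 1 group correlated at 0.986 to 0.993 over genes, and arrays of different groups at 0.939 to 0.992. Genes that mark a peripheral nerve were bright in the contralateral groups, with means of 13.02 and 12.75 for the myelin gene Mbp and of 12.65 and 12.55 for the Schwann cell gene S100b at 3 and 7 DPI. Some arrays stood apart on genes of other cell types, described by the mean deviation of a list's members from their average over the 16 arrays. For 14 adipocyte genes this score was 1.12, 1.03, 0.73 and 0.17 on the 4 contralateral 7 DPI arrays and from -0.51 to 0.48 on the contralateral 3 DPI arrays. For 9 skeletal muscle genes it was 2.21 on injured 7 DPI replicate 1 and at most 0.57 on every other array. For 17 interferon response genes it was 0.61 and 1.53 on injured 7 DPI replicates 1 and 4 and at most 0.24 on every other array. The calls that were lost without these arrays are named below. In the 16 arrays the lower quartile of genes lay at 5.65 to 5.84, and Clca4l, Syt4, Spmip7, Atp6v0d2, Depdc1, Ckap2, Pth2r, Pappa and Or2h15 had at least 1 group mean at or below 5.84. No test of signal over background was made, so these low values were not shown to be above background and the sizes of those differences rest on them.

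The injury effect differed between the days for 70 genes, 0.385% of those tested, at an adjusted p under 0.05 and a difference of at least 2-fold. It was lower at 7 DPI for 49 genes (0.27%) and higher for 21 (0.116%), where lower covers both a smaller rise and a deeper fall. At the adjusted p alone, 312 genes passed (1.72%, with 0.771% higher and 0.947% lower), and 2468 had an unadjusted p under 0.05. Over all 18166 genes the difference was positive for 9256. For scale, 1055 genes (5.81%) were called for the injury effect at 3 DPI, 3.25% higher and 2.55% lower, and 846 (4.66%) at 7 DPI, 2.48% higher and 2.17% lower. At the adjusted p alone the injury effect passed for 33.5% of genes at 3 DPI and 32.1% at 7 DPI, and all these comparisons share their arrays with the difference. By the signs and sizes of the 2 injury effects, 25 of the 70 genes had the larger positive effect at 3 DPI, 12 the larger positive effect at 7 DPI, 15 the larger negative effect at 7 DPI, 6 the larger negative effect at 3 DPI and 12 effects of opposite sign. Among the fits that left out 1 array, the count moved most without contralateral 3 DPI replicate 1, which gave 97 called genes. Without injured 7 DPI replicates 1 and 4 it was 85, of which 34 were higher, and 59 of the 70 were among them. The calls lost there were those of Ccnb1, Ckap2, Gadd45a, Gjc3, Gldn, Nnat, Rdh5 (-0.96), Rrm2, Sec11c, Sostdc1 (-0.94) and Top2a (-1.04, adjusted p = 0.079). Without contralateral 7 DPI replicates 1 and 2, 64 genes were called and 55 of the 70 were among them. The calls lost there were those of C1qtnf9 (adjusted p = 0.052), Ccnb1 (0.057), Cd163, Dhh, Gadd45a, Gjc3 (0.054), Gldn, Nnat, Pappa, Ptprz1, Rrm2, Shh, Slc38a1 (0.054), Sostdc1 (0.068) and Sox2.

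**Figure D1:**
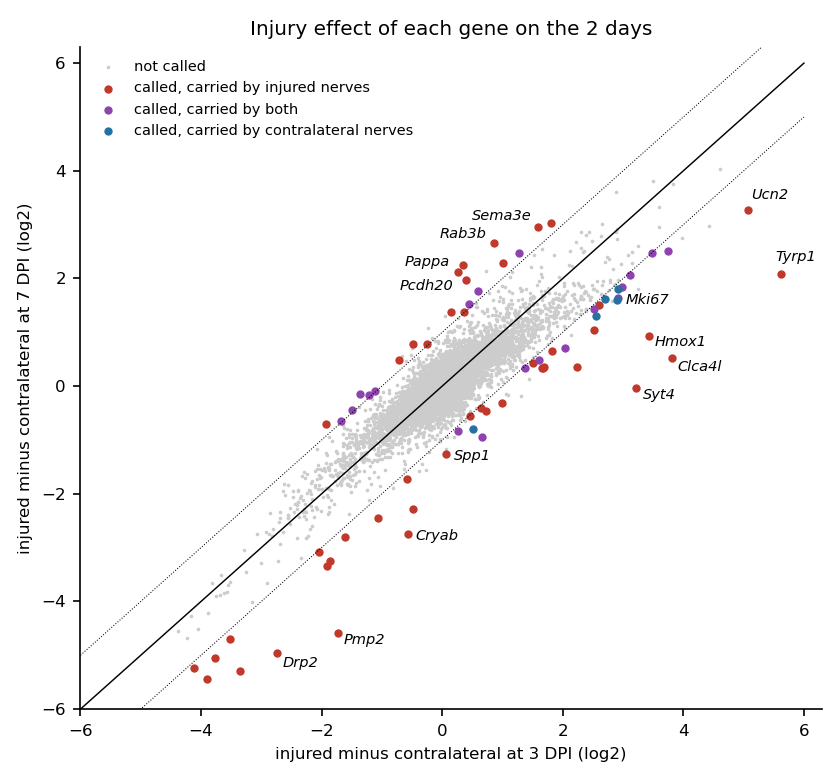
The injury effect of each of the 18166 genes at 3 DPI (x axis, log2) and at 7 DPI (y axis, log2). Genes on the solid line had equal effects, the dotted lines mark a 2-fold difference, and the 70 called genes are coloured by the nerves that carried the difference, 49 of them below the line and 21 above it.

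The difference equals the change from 3 to 7 DPI in the injured nerves minus the change in the contralateral nerves, so each gene can be traced to the group means that carry it. For 46 of the 70 genes (65.7%) at least 75% of the difference came from the injured nerves, against 40.8% of all genes tested. For 19 (27.1%) both sides contributed, near the 26.3% of all genes, and for 5 (7.14%, against 32.9%) at most 25% came from the injured nerves. Those 5 were Depdc1, Nnat, Ckap2, Top2a and Prc1. One group mean stood alone, farther from its nearest neighbour than the other 3 spanned, for 35 genes. It was injured 3 DPI for 18 of them and injured 7 DPI for 17, and a contralateral group for 0. Over all genes the lone group was injured 3 DPI for 9.83%, injured 7 DPI for 13.3%, contralateral 3 DPI for 9.3%, contralateral 7 DPI for 7.55% and none for 60.1%. The 2 sides compared alone gave 58 called genes (0.319%) between the injured groups and 2 (0.011%) between the contralateral groups, Depdc1 and Ankef1. At the adjusted p alone, 730 genes (4.02%) differed between the injured groups, 2.23% higher and 1.78% lower at 7 DPI. How many genes both sides carried depended on the contralateral 3 DPI arrays, with 44 such genes without replicate 1 and 12 without replicate 3.

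The largest differences belonged to genes that rose at 3 DPI and had come down by 7 DPI. In these the injured 3 DPI mean stood apart and the contralateral arrays stayed level. Tyrp1, an enzyme of melanin synthesis, read 11.40, 12.01, 11.84 and 12.03 on the injured 3 DPI arrays and 7.60, 8.61, 7.57 and 8.51 on the injured 7 DPI arrays. The contralateral arrays read 5.74, 6.12, 5.80 and 7.10 at 3 DPI and 7.25, 5.73, 5.54 and 5.44 at 7 DPI. Both injured groups lay above all contralateral arrays and did not overlap each other. The injury effect went from 5.63 to 2.08, a difference of -3.54 ± 0.54 (SE, n = 4 arrays per group, adjusted p = 0.0025), or 11.7-fold. Tyrp1 was the only called gene among 7 melanocyte genes measured, and the other 6, pigment cell genes such as Dct, Pmel and Mlana, had differences from -0.27 to 0.15.

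Syt4, a synaptotagmin of secretory vesicles, was raised at 3 DPI alone. It read 8.29, 9.26, 9.22 and 9.70 on the injured 3 DPI arrays, and the other 12 arrays lay between 5.14 and 5.99. Its injury effect was 3.22 at 3 DPI (adjusted p = 5.3e-09) and -0.04 at 7 DPI (adjusted p = 0.92), a difference of -3.26 ± 0.31 (adjusted p = 2.9e-05). Clca4l, of the chloride channel accessory family, had the same form, with 8.86 to 10.10 in injured nerves at 3 DPI, 5.54 to 5.96 at 7 DPI and a difference of -3.28 ± 0.34 (adjusted p = 7.6e-05). Spmip7, named for a sperm microtubule protein, read 7.54 to 8.06 in the injured 3 DPI nerves against 5.18 to 6.13 on the other 12 arrays, with a difference of -1.89 ± 0.21 (adjusted p = 0.00012).

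Hmox1 encodes heme oxygenase 1, which breaks down heme and is induced by oxidative stress. It read 10.24, 10.20, 10.62 and 10.79 on the injured 3 DPI arrays, 8.60, 7.79, 8.47 and 8.10 on the injured 7 DPI arrays, and 6.93 to 7.48 on the contralateral arrays of both days. The 3 levels did not overlap, and the difference was -2.48 ± 0.25 (5.59-fold, adjusted p = 4.4e-05). It was the only gene called among 13 genes of the NRF2 response, heme and iron. Fth1, a ferritin subunit, passed the adjusted p below 2-fold with -0.41 (adjusted p = 0.012), and the other 11 did not pass. The 3 red blood cell genes measured, Hba-a1, Hbb-b1 and Slc4a1, scored from -0.41 to 0.08 in injured nerves at 3 DPI, from -0.88 to 0.08 in injured nerves at 7 DPI and from 0.27 to 1.33 in contralateral nerves at 7 DPI, and the part of blood in the Hmox1 values was not tested.

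Among secreted signals, Ucn2 and Shh rose and then receded. Ucn2, the peptide urocortin 2, read 11.10, 11.27, 11.43 and 11.35 in injured nerves at 3 DPI and 9.49, 9.65, 9.33 and 9.80 at 7 DPI, with 6.01 to 6.93 on the 8 contralateral arrays. Its injury effect was still 3.27 at 7 DPI, after 5.07 at 3 DPI, and the difference was -1.81 ± 0.25 (adjusted p = 0.0015). Shh, the ligand sonic hedgehog, read 9.52, 8.90, 9.52 and 9.28 at 3 DPI and 7.68, 8.19, 8.42 and 8.16 at 7 DPI, with 7.43 to 7.97 on the contralateral arrays. The injured 7 DPI arrays thus overlapped the contralateral ones, where the injured 3 DPI arrays did not. The Shh effect was 1.68 (adjusted p = 6.7e-07) and then 0.34 (adjusted p = 0.16), a difference of -1.34 ± 0.24 (adjusted p = 0.009) that was -1.26 and no longer called without contralateral 7 DPI replicates 1 and 2 (adjusted p = 0.058).

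Of 20 genes of the repair Schwann cell, 1 was called higher and 2 lower, and the median difference was -0.005 beside 0.004 over all genes. The called members were Sox2, Shh and Ucn2. None of the other 17 passed. Ngfr, the p75 neurotrophin receptor, had effects of 2.65 and 3.00 (difference 0.35 ± 0.19, adjusted p = 0.43), and Gdnf, a survival factor for motor neurons, had 1.32 and 0.82 (difference -0.51 ± 0.20, adjusted p = 0.28). Runx2, Btc and Dusp10 had effects between 3.33 and 4.62 on both days with differences from -0.59 to -0.08.

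Further genes also had a smaller rise at 7 DPI. Atp6v0d2, a subunit of the proton pump that acidifies lysosomes, had effects of 2.52 and 1.05 and a difference of -1.47 ± 0.29 (adjusted p = 0.014). Hilpda, a lipid droplet protein induced by low oxygen, had 1.5 and 0.44 with a difference of -1.07, which was -0.98 without contralateral 3 DPI replicate 3. C1qtnf9, a secreted protein of the C1q and TNF related family, Tatdn1, a nuclease, and Pabir2, a protein phosphatase regulator, had differences of -1.31, -1.33 and -1.18. In 3 genes the sign turned. Vamp5, a vesicle SNARE protein, was raised by 0.73 at 3 DPI and stood at -0.46 at 7 DPI (adjusted p = 0.00014 and 0.0069), and Rdh5, a retinol dehydrogenase, went from 0.64 to -0.41 (adjusted p = 0.0013 and 0.031). Calr4, a calreticulin of the endoplasmic reticulum, went from 1.00 to -0.32, and only its effect at 3 DPI passed (adjusted p = 0.00016 and 0.18). Without contralateral 3 DPI replicate 2 or contralateral 7 DPI replicate 3 the difference of Rdh5 was -0.98 or -0.97 and under 2-fold.

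**Figure D2:**
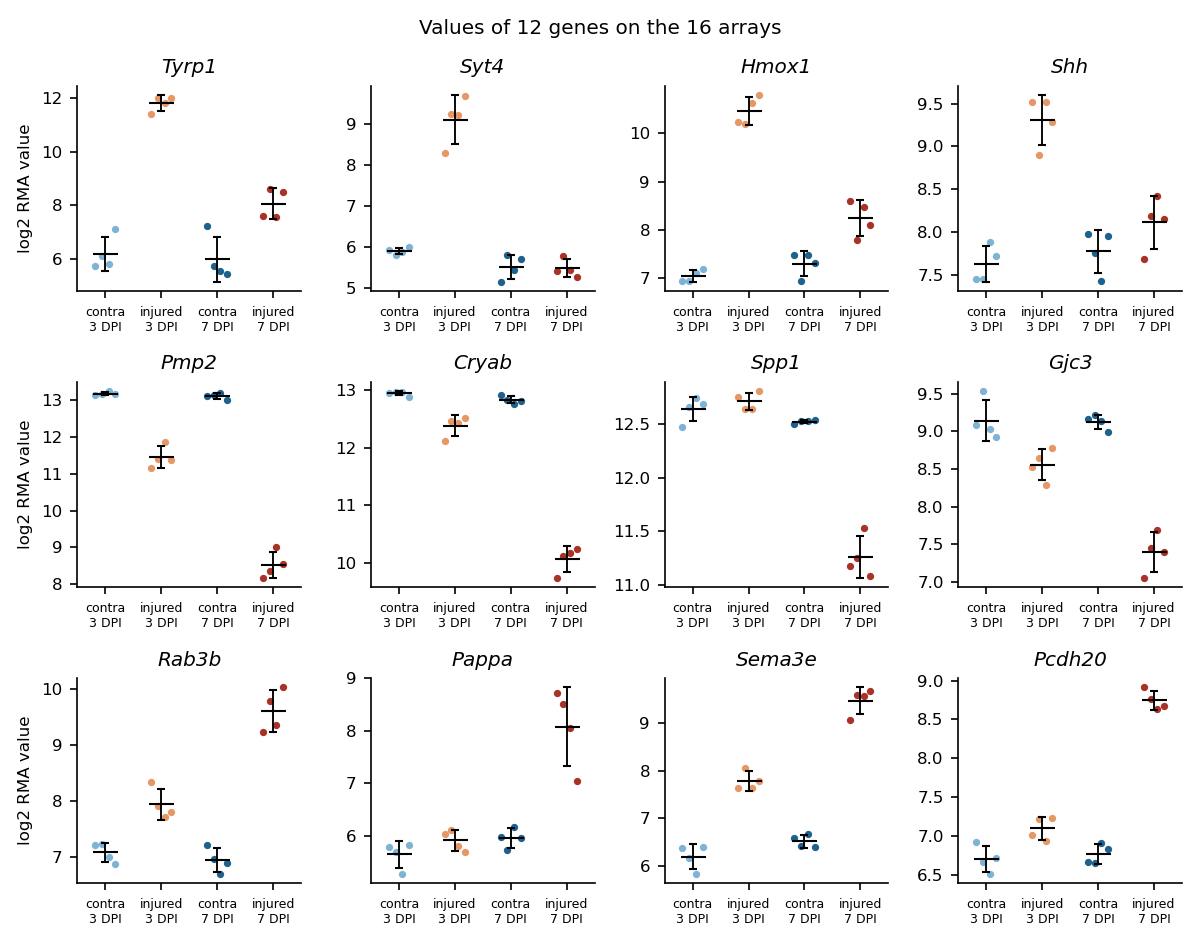
Log2 RMA values of 12 genes on the 16 arrays (y axis), by group (x axis, "contra" for contralateral), with 1 point per array and the mean ± SD of 4 arrays. The injured 3 DPI arrays are the high ones in the top row, the injured 7 DPI arrays the low ones in the middle row and the high ones in the bottom row.

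Several myelin genes fell further between 3 and 7 DPI. Of 16 measured, 5 were called lower and none higher, and the contralateral changes of those 5 lay between -0.25 and -0.02. Pmp2, the fatty acid binding protein P2 of peripheral myelin, read 11.15, 11.39, 11.86 and 11.38 in injured nerves at 3 DPI and 8.18, 8.36, 9.01 and 8.56 at 7 DPI. All 8 contralateral arrays lay between 13.01 and 13.24. The 3 levels were well apart, and the injury effect went from -1.73 to -4.59, a difference of -2.86 ± 0.22 (7.24-fold, adjusted p = 2.9e-06). Drp2, the dystrophin relative that joins periaxin at the outer Schwann cell membrane, read 9.43 to 10.06 and then 7.19 to 7.35 in injured nerves, against 12.19 to 12.57 in contralateral nerves, with a difference of -2.22 ± 0.15 (adjusted p = 5.7e-07).

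Ncmap, a protein of noncompact myelin, had effects of -3.90 at 3 DPI and -5.44 at 7 DPI (difference -1.54 ± 0.22, adjusted p = 0.0017), and Mal, a proteolipid of myelin, had -3.77 and -5.05 (difference -1.28 ± 0.17, adjusted p = 0.0013). Gjc3, the gap junction protein connexin 29, was the late one among them. It read 8.29 to 8.77 in injured nerves at 3 DPI and 7.06 to 7.69 at 7 DPI, beside 8.92 to 9.53 in contralateral nerves, and its difference was -1.14 ± 0.20 (adjusted p = 0.0078). Without injured 7 DPI replicates 1 and 4 that difference was -0.97 and under 2-fold, and without contralateral 7 DPI replicates 1 and 2 it was -1.08 (adjusted p = 0.054).

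The other 11 myelin genes were not called. Prx, which encodes periaxin, had effects of -4.23 and -4.67 (difference -0.44 ± 0.20, adjusted p = 0.36) and an injured change of -0.77 (adjusted p = 0.0052), Mbp had -1.80 and -2.20 and Pmp22 had -1.53 and -1.67. Ugt8 and Egr2, an enzyme of myelin galactolipids and the transcription factor that drives the myelin genes, had positive differences of 0.53 and 0.55 that did not pass (adjusted p = 0.11 and 0.43). The median difference of the 16 was -0.294, and 10 of them had every injured 7 DPI array below every injured 3 DPI array, which held for 4.64% of all genes (the reverse held for 7.37%). On the contralateral side 5 of the 16 had every 7 DPI array below every 3 DPI array, against 2.49% of all genes.

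Genes of cholesterol synthesis had similar median effects on both days. Among 17 genes of cholesterol synthesis 0 were called and 3 had an unadjusted p under 0.05, the median injury effects were -2.13 and -2.21, and the median difference was -0.028. Only Msmo1, a sterol oxidase, passed the limma test at the adjusted p alone, with -0.48 (adjusted p = 0.018). Of 13 genes of fatty acid and sphingolipid synthesis 2 were called lower, both fatty acid elongases. Elovl7 had effects of -4.12 and -5.24 and Elovl6 of -3.52 and -4.70, with differences of -1.12 ± 0.16 and -1.18 ± 0.20 (adjusted p = 0.0019 and 0.0059). The desaturase Fads2 passed the adjusted p in the other direction, with effects of 0.19 and 1.05 (difference 0.86, adjusted p = 0.022).

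Several genes outside the myelin list fell late or deepened their fall in the same groups. Cryab, the small heat shock protein alphaB-crystallin, read 12.12, 12.46, 12.43 and 12.52 in injured nerves at 3 DPI and 9.74, 10.13, 10.18 and 10.25 at 7 DPI, with 12.77 to 12.97 on the contralateral arrays. At 3 DPI all injured arrays already lay below the contralateral ones (effect -0.56, adjusted p = 0.00035), and the injured 7 DPI group stood alone. The difference was -2.19 ± 0.14 (4.58-fold, adjusted p = 5.7e-07). Maob, the monoamine oxidase B, had an effect of -0.49 at 3 DPI (adjusted p = 0.0038), with 10.81 to 11.06 and then 8.60 to 9.28 in injured nerves, 11.22 to 11.51 in contralateral nerves and a difference of -1.80 ± 0.17 (adjusted p = 2.7e-05). Padi2, which citrullinates proteins including myelin basic protein, had effects of -1.06 and -2.45 and a difference of -1.38 ± 0.13 (adjusted p = 3.5e-05).

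Spp1, the secreted protein osteopontin, was level in 3 of the 4 groups. It read 12.64 to 12.81 in injured nerves at 3 DPI and 12.48 to 12.74 and 12.50 to 12.54 in contralateral nerves at 3 and 7 DPI, and then 11.18, 11.25, 11.53 and 11.08 in injured nerves at 7 DPI. The effect was 0.07 (adjusted p = 0.61) and then -1.27 (adjusted p = 1e-08), a difference of -1.34 ± 0.12 (adjusted p = 2.7e-05). It was the only one called lower of 16 genes of lipid uptake, lysosome and foam cells. Apoe, the apolipoprotein that carries lipid from macrophages and Schwann cells, passed the adjusted p in the other direction with 0.55 (adjusted p = 0.036), and Plin2 and Abca1, of lipid droplets and cholesterol export, had effects of 1.04 and 0.98 and of 2.73 and 2.41.

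Scn7a, an unusual sodium channel of Schwann cells, had effects of -1.87 and -3.24 (difference -1.37 ± 0.19, adjusted p = 0.0016), and none of the other 9 sodium and potassium channel genes was called. Cnmd, chondromodulin, read 8.13 to 8.54 and then 6.09 to 6.38 in injured nerves, against 11.45 to 12.06 in contralateral nerves, with a difference of -1.95 ± 0.17 (adjusted p = 1.5e-05). Samd5, a SAM domain protein, had effects of -1.62 and -2.80. Sostdc1, a secreted antagonist of BMP and Wnt ligands, had -2.05 and -3.08, a difference of -1.03 that was -0.85 and -0.94 without injured 3 DPI replicate 3 and injured 7 DPI replicate 1. Gldn, the nodal protein gliomedin, had -1.91 and -3.34, but its difference of -1.43 ± 0.33 (adjusted p = 0.04) lost its call in 11 of the 16 fits that left out 1 array, where it lay between -1.60 and -1.20. Sec11c, a subunit of the signal peptidase, went from 0.46 to -0.55, and its difference of -1.01 lay from -1.05 to -0.96 in those fits and fell under 2-fold in 6.

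Genes of cell division had a smaller injury effect at 7 DPI. In the mitosis and spindle list most of that difference lay on the contralateral side. All 29 genes of the mitosis and spindle list had every injured array above every contralateral array on both days, which held for 19.3% of all genes at 3 DPI and 18.9% at 7 DPI. Their median injury effect was 2.49 at 3 DPI and 1.63 at 7 DPI. The difference was negative for all 29, and 6 were called lower, 16 at the adjusted p alone. The median change from 3 to 7 DPI was -0.213 in injured nerves and 0.607 in contralateral nerves. In 20 of the 29 genes every contralateral 7 DPI array lay above every contralateral 3 DPI array, against 2.92% of all genes, and in 4 every injured 7 DPI array lay below every injured 3 DPI array, against 4.64%.

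Mki67, which encodes the proliferation marker Ki-67, had this form. The contralateral arrays read 8.34, 8.23, 7.61 and 7.89 at 3 DPI and 8.64, 9.13, 9.10 and 9.01 at 7 DPI, with no overlap. The injured arrays read 11.04, 10.95, 10.81 and 10.93 at 3 DPI and 10.68, 10.51, 10.82 and 10.39 at 7 DPI, where 1 array of the later day lay within the range of the earlier. The contralateral change was 0.95 (adjusted p = 0.023) and the injured change -0.33 (adjusted p = 0.25), and the difference was -1.28 ± 0.21 (adjusted p = 0.0045). Depdc1, a protein of the mitotic spindle, was called for the contralateral change itself. It read 4.79 to 5.2 and then 5.68, 6.21, 6.36 and 6.24 in contralateral nerves, a rise of 1.10 (adjusted p = 0.023), with an injured change of -0.20 (adjusted p = 0.57) and a difference of -1.30 ± 0.23 (adjusted p = 0.0075).

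Prc1, which bundles microtubules of the central spindle, had a contralateral change of 0.87 (adjusted p = 0.023) and Ccna2, cyclin A2, one of 0.75 (adjusted p = 0.048), with differences of -1.08 ± 0.20 and -1.13 ± 0.19 (adjusted p = 0.0094 and 0.0048). For Prc1 the difference was -1.0 and just under 2-fold without contralateral 3 DPI replicate 4. Top2a, the topoisomerase that untangles chromosomes, and Ckap2, a spindle protein, had contralateral changes of 0.90 and 0.95 that did not pass (adjusted p = 0.055 and 0.072). Their differences of -1.1 and -1.24 lost the call in 7 and 11 of the 16 fits without 1 array. Kif20a, a kinesin of cytokinesis, and Ccnb1, cyclin B1, had differences of -1.09 and -1.05, and that of Ccnb1 was -0.92, -0.97 and -0.99 without contralateral 3 DPI replicate 3, injured 3 DPI replicate 1 and injured 3 DPI replicate 2.

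In the DNA replication list the median changes of the 2 sides were closer in size. The contralateral one was smaller than in the mitosis list. Of 27 genes 2 were called lower, 10 at the adjusted p alone, and the median change was -0.220 in injured and 0.263 in contralateral nerves. In 10 of the 27 every injured 7 DPI array lay below every injured 3 DPI array, against 4.64% of all genes. In 11 every contralateral 7 DPI array lay above every contralateral 3 DPI array, against 2.92%. Ccne2, cyclin E2, which starts S phase, read 8.94 to 9.68 and then 8.24 to 8.59 in injured nerves, a change of -0.90 (adjusted p = 0.00097), and 6.39 to 6.91 and 6.86 to 6.93 in contralateral nerves. Its difference was -1.1 ± 0.19 (adjusted p = 0.0078), and it was -1.0 and -0.97 without contralateral 3 DPI replicate 3 and injured 3 DPI replicate 2. Rrm2, the ribonucleotide reductase subunit, had changes of -0.57 and 0.65 (adjusted p = 0.099 and 0.19) and a difference of -1.22 ± 0.26 (adjusted p = 0.023), which lost its call when injured 3 DPI replicate 1 (adjusted p = 0.051), its replicate 4 (0.054) or injured 7 DPI replicate 2 (0.051) was dropped.

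Between the contralateral days 13 genes passed the adjusted p (0.0716%), 10 of them higher at 7 DPI. Of those 10, Mki67, Ect2, Prc1, Ccna2, Fbxo5, Brip1, Mcm6 and Depdc1 encode proteins of the cell cycle or of DNA replication and repair. Mboat1, Dbh and Aldoc were lower. The mean deviation of the 29 mitosis genes was -1.11, -1.24, -1.46 and -1.38 on the contralateral 3 DPI arrays and -0.96, -0.66, -0.62 and -0.63 on the contralateral 7 DPI arrays, and 0.82 to 1.3 and 0.82 to 0.95 in injured nerves. The adipocyte scores of the same contralateral 7 DPI arrays were 1.12, 1.03, 0.73 and 0.17, and their part in the mitosis values was not tested. Without contralateral 7 DPI replicates 1 and 2, 7 mitosis genes were called lower.

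Promoter sequence of 4 called cell division genes is shown because the genes moved together. Promoters of genes used late in the cell cycle are known to hold CCAAT boxes and the cell cycle homology region TTTGAA. The sequences are the 150 bases before the annotated start, from RefSeq on the rat assembly GRCr8, read 5′ to 3′ along the gene, and capitals mark TTTGAA and CCAAT on either strand (TTCAAA and ATTGG when read from the other strand). They were chosen after the values were seen, among called genes with both motifs in this window. Mki67 lies at chr1:199952594-199952743 on the minus strand, Prc1 at chr1:143659331-143659480 on the plus strand, Top2a at chr10:84473094-84473243 on the minus strand and Ckap2 at chr16:76541964-76542113 on the plus strand. In Mki67 the second TTTGAA runs into a CCAAT of the other strand.
Mki67: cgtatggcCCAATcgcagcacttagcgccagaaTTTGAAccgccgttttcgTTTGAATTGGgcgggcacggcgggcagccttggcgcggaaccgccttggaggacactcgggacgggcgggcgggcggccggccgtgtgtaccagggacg
Prc1: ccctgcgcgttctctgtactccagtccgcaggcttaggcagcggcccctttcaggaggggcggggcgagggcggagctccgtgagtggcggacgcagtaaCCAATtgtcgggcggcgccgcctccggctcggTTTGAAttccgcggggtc
Top2a: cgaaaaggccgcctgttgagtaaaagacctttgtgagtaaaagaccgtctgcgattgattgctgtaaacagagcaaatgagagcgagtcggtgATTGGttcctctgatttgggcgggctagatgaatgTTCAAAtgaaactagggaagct
Ckap2: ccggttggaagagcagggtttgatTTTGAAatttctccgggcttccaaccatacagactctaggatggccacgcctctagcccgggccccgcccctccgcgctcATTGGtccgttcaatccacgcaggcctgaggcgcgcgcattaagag

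Over the 250 bases before the start, 10 of the 26 mitosis and spindle genes with a promoter in the table (38.5%) held TTTGAA, 20 (76.9%) held CCAAT and 10 held both. Among all 33469 promoters of the table the shares were 16.2%, 34.0% and 5.87%. Of 22 matched DNA replication genes 2 held TTTGAA and 12 held CCAAT, and of 14 matched myelin genes 0 and 7 did. Of the 70 called genes 51 had a promoter in the table, of which 11 held TTTGAA and 20 held CCAAT. A match of letters is a description and no measure of binding.

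**Figure D3:**
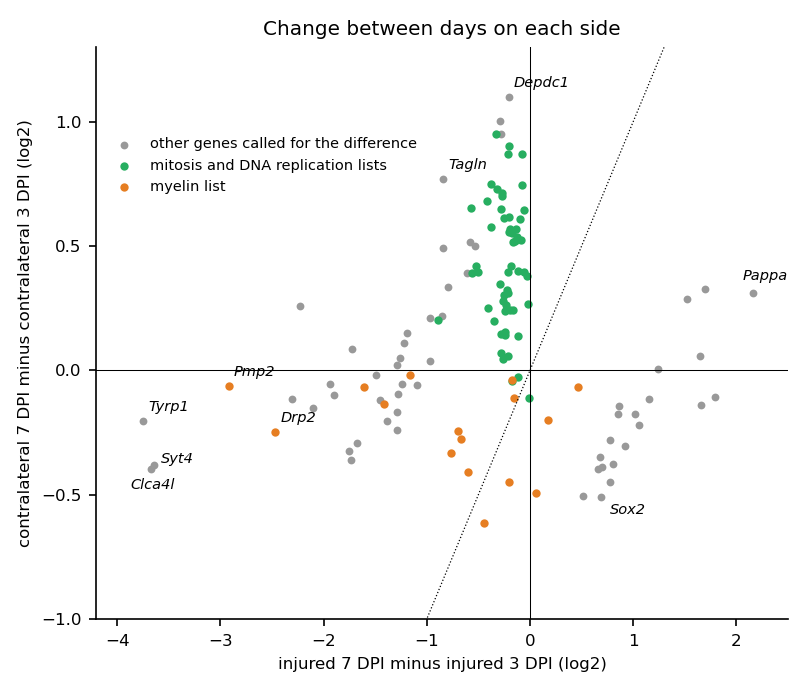
Change from 3 to 7 DPI in injured nerves (x axis, log2) and in contralateral nerves (y axis, log2, stretched over a narrower range). Points are the genes of the mitosis, DNA replication and myelin lists and the other called genes. On the dotted line both changes are equal and the difference is 0. The median change of the mitosis list is -0.213 on the x axis and 0.607 on the y axis. That of the DNA replication list is -0.220 and 0.263, and the called myelin genes lie far to the left.

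Most of the 19 called genes that both sides carried were not genes of cell division, and some of them follow here. Tagln, the actin binding protein transgelin of smooth muscle and contractile fibroblasts, turned its direction. It read 10.76 to 11.23 in injured and 10.04 to 10.64 in contralateral nerves at 3 DPI, and 9.92 to 10.50 in injured and 11.06 to 11.22 in contralateral nerves at 7 DPI. On each day the sides did not overlap, but the injured arrays were the higher at 3 DPI and the lower at 7 DPI, with effects of 0.66 and -0.94 (adjusted p = 0.0013 and 5.7e-05) and a difference of -1.61 ± 0.20 (adjusted p = 0.00051). None of the other 9 smooth muscle and pericyte genes was called, and Myh11 and Des, of contractile smooth muscle, had differences of -0.45 and -0.42. Lmo7, an actin associated protein, had effects of 0.27 and -0.83 and a difference of -1.1, which was -0.92 without contralateral 3 DPI replicate 3.

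Lyve1 and Cd163 rose less at 7 DPI. Lyve1, a hyaluronan receptor of lymphatic endothelium and of resident macrophages, read 10.05 to 10.34 and then 8.92 to 9.70 in injured nerves, and 7.65 to 8.61 and then 8.43 to 8.81 in contralateral nerves. Its injury effect was 2.04 and then 0.71, a difference of -1.33 ± 0.26 (adjusted p = 0.015). Cd163, the scavenger receptor with which macrophages take up hemoglobin, had effects of 1.61 and 0.48 and a difference of -1.13 ± 0.24 (adjusted p = 0.026), which lost its call in 9 of the 16 fits without 1 array and lay between -1.28 and -1.0 there. It was the only called gene of 21 of macrophages and monocytes. The difference was negative for 20 of the 21, with a median of -0.398, and Gpnmb, a membrane glycoprotein of foamy macrophages, had effects of 2.88 and 2.87. The macrophage score was 0.71 to 0.99 on the injured 3 DPI arrays and 0.75, 0.12, 0.43 and 0.81 on the injured 7 DPI arrays.

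Cxcl14, a chemokine, and Gadd45a, a stress-induced growth arrest gene, had effects of 1.37 and 0.34 and of 3.49 and 2.48. Their differences of -1.04 and -1.01 stood close to the 2-fold limit and lost the call in 4 and 9 of the fits without 1 array, and those of Cxcl14 were injured 3 DPI replicates 3 and 4, contralateral 7 DPI replicate 1 and injured 7 DPI replicate 3 (-1.14 to -0.90 over all 16). Ccl2, the chemokine that draws monocytes, had effects of 3.98 and 2.76, and its difference of -1.23 ± 0.38 did not pass (adjusted p = 0.13). Nnat, neuronatin, a membrane protein of the endoplasmic reticulum, is the least settled of the called genes. Its difference of -1.29 ± 0.30 (adjusted p = 0.039) came from a contralateral change of 1.00 that did not pass (adjusted p = 0.077), was -0.52 when its probe sets were averaged, so that they disagree, and lost its call in 13 of 16 fits without 1 array.

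Of the 21 genes with a higher effect, 12 had a positive effect on both days that was larger at 7 DPI. Pappa, a protease that frees insulin-like growth factors from their binding proteins, read 5.70 to 6.12 in injured nerves at 3 DPI and 8.72, 8.50, 8.05 and 7.04 at 7 DPI. Its contralateral arrays lay between 5.28 and 6.17. Only the injured 7 DPI arrays were raised, replicate 4 the least, and the difference was 1.85 ± 0.37 (3.6-fold, adjusted p = 0.016), or 1.74 with an adjusted p of 0.088 without contralateral 7 DPI replicates 1 and 2. Rab3b, a GTPase of regulated secretion, read 7.71 to 8.34 and then 9.23, 9.79, 9.36 and 10.03 in injured nerves, against 6.70 to 7.24 in contralateral nerves (difference 1.80 ± 0.24, adjusted p = 0.0012).

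Pcdh20, a protocadherin, read 6.93 to 7.24 in injured nerves at 3 DPI and 8.64 to 8.91 at 7 DPI, with 6.52 to 6.93 in contralateral nerves. Its difference of 1.59 ± 0.14 (adjusted p = 1.8e-05) had the smallest adjusted p among the genes with a higher effect. Sema3e, a guidance ligand of axons and vessels, read 7.64 to 8.07 and then 9.07, 9.60, 9.57 and 9.67, with 5.83 to 6.67 in contralateral nerves and a difference of 1.37 ± 0.21 (adjusted p = 0.0025). It was the only called one of 23 semaphorins and ephrins, among which Sema4c passed the adjusted p below 2-fold (0.78, adjusted p = 0.035). Or2h15, a member of the odorant receptor family, had a difference of 1.90 ± 0.29 (adjusted p = 0.0024) and group means of 5.4, 5.74 and 5.29 outside the injured 7 DPI group, within or below the lower quartile range given above. It read 7.33 to 7.79 in injured nerves at 7 DPI and at most 6.29 on the other 12 arrays. The uncharacterised gene Kiaa0040 read 7.81 to 8.35 there and at most 6.85 elsewhere (difference 1.24 ± 0.14, adjusted p = 0.00012).

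Pth2r, a parathyroid hormone receptor, and the membrane protein Tmem196 had effects of 1.01 and 2.28 and of 1.80 and 3.03. Sox2, a transcription factor that holds Schwann cells in an immature state, rose on both days. It read 8.30 to 8.68 and then 9.04, 9.47, 9.37 and 9.06 in injured nerves, and 6.73, 7.42, 7.72 and 7.20 and then 6.74, 6.85, 6.91 and 6.54 in contralateral nerves. The injured groups did not overlap while the contralateral ones did, and the difference of 1.20 ± 0.24 (adjusted p = 0.016) was made of an injured change of 0.69 and a contralateral change of -0.51. Without contralateral 7 DPI replicates 1 and 2 it was 1.23 (adjusted p = 0.063). Cadm1, an adhesion molecule of the immunoglobulin family, and Map2, a microtubule protein, had effects of 0.59 and 1.77 and of 0.44 and 1.53, with differences of 1.18 and 1.09.

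Ano4, of the anoctamin family, went from -0.48 to 0.79 (adjusted p = 0.038 and 0.0017, difference 1.27 ± 0.24), and Atp10b, a lipid flippase, from -0.25 to 0.78, with a difference of 1.03 that lay between 0.93 and 1.16 in the fits without 1 array and lost its call in 4 of them. Ptprz1, a receptor phosphatase of glial precursors, had effects of 0.36 and 1.37 and a difference of 1.01, called in 8 of 16 of those fits and lost in the other 8.

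The remaining genes with a higher effect fell at 3 DPI and stood nearer to or above the contralateral nerves at 7 DPI, with both sides contributing to most of these differences. Dhh, the ligand desert hedgehog that Schwann cells send to the perineurium, read 7.90, 7.57, 7.26 and 7.45 in injured nerves at 3 DPI and 8.10, 8.64, 8.32 and 8.21 at 7 DPI. The contralateral arrays lay between 8.44 and 9.36. Its effect went from -1.5 (adjusted p = 2.8e-06) to -0.44 (adjusted p = 0.062), and the difference of 1.06 ± 0.24 (adjusted p = 0.037) lost its call in 12 of the 16 fits without 1 array, where it lay between 0.95 and 1.20. Dhh and Shh, 2 ligands of the same receptors, thus differed between the days in opposite directions, and none of the other 6 hedgehog pathway genes was called, Gli1 having -0.34 and Hhip -0.62.

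Ttyh1, a chloride channel family member of glia, read 6.88 to 7.22 and then 7.60 to 8.18 in injured nerves against 7.84 to 8.72 in contralateral nerves, so that the injured 7 DPI arrays overlapped the contralateral ones (difference 1.22 ± 0.19, adjusted p = 0.0035). Syt11, a synaptotagmin, had effects of -1.94 and -0.71 and a difference of 1.22 ± 0.20 (adjusted p = 0.0045). Gamt, the last enzyme of creatine synthesis, went from -0.72 to 0.48 (adjusted p = 4.8e-05 and 0.0023) with a difference of 1.19 ± 0.15 (adjusted p = 0.00061). The differences of Lgi4, a secreted Schwann cell protein that promotes myelination, of the glutamine transporter Slc38a1 and of the membrane-bound protease Mmp15 were 1.02, 1.05 and 1.03. Both sides carried them, with contralateral changes of -0.50, -0.40 and -0.35 that did not pass (adjusted p = 0.19, 0.34 and 0.37), and for Ttyh1 that change was -0.45 (adjusted p = 0.23). The calls of Lgi4, Slc38a1 and Mmp15 were lost in 7, 4 and 4 of the 16 fits without 1 array, with ranges of 0.88 to 1.16, 0.91 to 1.23 and 0.89 to 1.11.

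Of 14 general Schwann cell genes 0 were called by limma, and 6 had an unadjusted p under 0.05. The difference was positive for 11, with a median of 0.233 that lay mostly on the contralateral side (median change -0.232, against 0.052 in injured nerves), and in limma's test 2 passed the adjusted p below 2-fold. Erbb3, the neuregulin receptor, had effects of 0.14 and 1.03 (difference 0.89 ± 0.20, adjusted p = 0.029), and the cadherin Cdh19 had -0.89 and -0.08 (difference 0.81 ± 0.14, adjusted p = 0.009). Sox10, the transcription factor of the lineage, had -0.19 and 0.29 (difference 0.48, adjusted p = 0.18). The GDNF co-receptor Gfra1 rose on both days, by 1.00 and 1.86, with a difference of 0.87 ± 0.12 (adjusted p = 0.0017) that was the only one to pass among 14 genes of neurotrophins, the GDNF family and their receptors.

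Of the 249 measured ligands of the study's own curated list, 2 were called higher (Sema3e and Dhh) and 3 lower (Ucn2, Shh and Spp1), with a median difference of -0.064. The study drew that list up with these nerves in view, so it is no independent evidence. Below 2-fold, Ptn, the growth factor pleiotrophin, passed with effects of -0.10 and 0.71 (difference 0.81, adjusted p = 0.012), Angpt1, a ligand of endothelial cells, with 0.48 and 1.19 (difference 0.72, adjusted p = 0.03), and Kitlg, the stem cell factor, with 0.54 and -0.24 (difference -0.79, adjusted p = 0.012).

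Of the 47 gene lists examined, 15 held a called gene, and 27 of the 70 called genes were on a list. The lists of red blood cells, adipocytes, perineurial cells, mast cells, bridge mesenchymal cells and skeletal muscle held 0 called genes by limma. In that order, 3, 5, 6, 4, 0 and 0 of their members had an unadjusted p under 0.05 in limma's test. Over all 18166 genes 2468 had such a p, and 9256 had a positive difference. The 3 red blood cell genes had a median difference of -1.116 and the 14 adipocyte genes one of -0.551, all 17 of them negative, with contralateral changes of 0.775 and 0.707. Plin1, the coat protein of the adipocyte lipid droplet, read 8.54, 8.41, 7.67 and 7.20 on the contralateral 7 DPI arrays and 6.44 to 7.18 on the other 12, and its difference of -0.99 ± 0.33 did not pass (adjusted p = 0.17). The 8 perineurial genes had a median of -0.598 and the 8 mast cell genes one of -0.535. All 7 genes of bridge and differentiating mesenchymal cells had positive differences, with a median of 0.425 and none called, and Lrrc15, a membrane protein of matrix-producing fibroblasts, had effects of 2.88 and 3.60 (adjusted p of the difference 0.52).

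**Figure D4:**
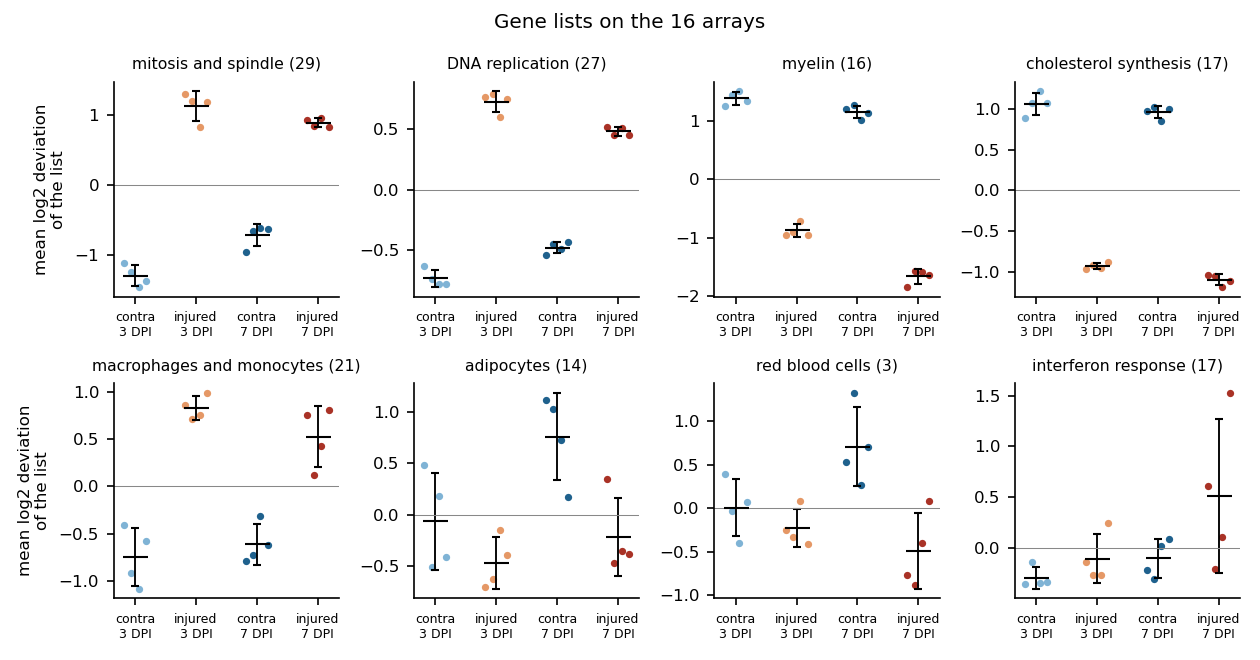
Mean deviation of 8 gene lists from their average over the 16 arrays (y axis, log2) by group (x axis, "contra" for contralateral), with 1 point per array and the mean ± SD of 4 arrays, and the number of genes in brackets. The mitosis score is higher on all 4 contralateral 7 DPI arrays (-0.96 to -0.62) than on the contralateral 3 DPI arrays (-1.46 to -1.11), the myelin score is lowest in injured nerves at 7 DPI, and the adipocyte and interferon scores spread widely within a group.

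The 17 interferon response genes had a median difference of 0.273 and 15 positive values, and their change between the injured groups had a median of 0.558. Mx1, an antiviral GTPase, read 8.33, 6.37, 7.14 and 9.71 on the injured 7 DPI arrays, and its difference of 1.27 ± 0.69 did not pass (adjusted p = 0.45). The 9 skeletal muscle genes had a median of 0.478, all positive, with the high score on injured 7 DPI replicate 1. On the same array Mmp12, macrophage elastase, read 9.93 against 5.88 to 6.00 on the other 3 of its group. The part of these other cells in the results above was not tested.

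**Figure D5:**
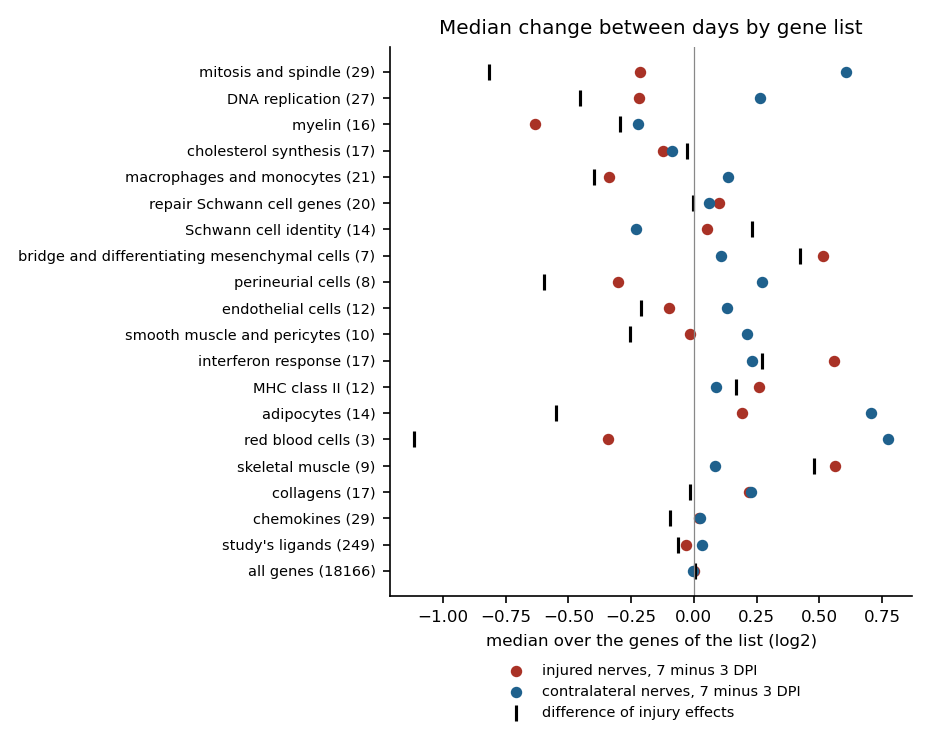
Median change from 3 to 7 DPI in injured nerves (red) and contralateral nerves (blue) and median difference of the injury effects (black bars) for 19 gene lists and all genes (x axis, log2), with the number of genes in brackets. For the mitosis list the median fell in injured nerves (-0.213) and rose in contralateral nerves (0.607), which brought the sides closer. The cholesterol list has a difference near 0 (-0.028).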

How the data were processed

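Labelled cDNA of each nerve was hybridised to an Affymetrix Rat Gene 2.0 ST array. The authors deposited log2 expression values made by robust multi-array averaging (RMA) in the R package oligo, which corrects background, quantile-normalises the arrays and summarises the probes of a probe set. The version and annotation build are not given in the sources used here. Quantile normalisation forces equal distributions on all arrays, so a shift of total RNA cannot be seen, and precision is set by how few arrays there are. No normalization was repeated.

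Of 36685 probe sets, 18511 carried 1 gene symbol, 575 several and 17599 none. Each of 18166 genes was read from 1 probe set, the brightest on average where there were several (291 genes), of which 18059 were found in the GRCr8 gene table. A model of the 4 group means was fitted in limma 3.58.1 (R 4.3.3) with empirical Bayes moderation (12 residual and 4.08 prior degrees of freedom), without a block. P-values were adjusted by the Benjamini-Hochberg method over all 18166 genes, and calls required an adjusted p below 0.05 together with a 2-fold difference. All adjusted p in the text are from this fit or its alternatives. A gene's difference was assigned to the injured nerves where they carried at least 75% of it. It was assigned to the contralateral nerves where the injured nerves carried at most 25%. Scripts were checked on simulated data, and figures were drawn with matplotlib 3.10.9 in Python 3.11.15.

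The genes named were the 12 called with the largest difference in each direction, up to 3 called per list, the leading ones of each assignment and a fixed set (50 genes). The other 27 called genes, and the uncalled genes outside the fixed set, were named after their values were seen. The comparison, members and lists were chosen with earlier results of these data known. Alternatives were another fold minimum, a filter on dim genes, probe set means, other scalings, variance models, array weights, replicate blocks and fits without arrays. The labels do not pair the nerves, and deviations of same-numbered nerves correlated only weakly, so the main fit used no pairing. Probe sets without a single symbol were left out of the main comparison.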

Additional observations from a re-analysis of the deposited data

Results flagged for a closer look

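The injury effect differed between 3 and 7 DPI for 70 genes by limma's test of the difference itself, and 43 of them that the report names by its rule are repeated here as values. Lower at 7 DPI were Tyrp1 (-3.54), Clca4l (-3.28), Syt4 (-3.26), Pmp2 (-2.86), Hmox1 (-2.48), Drp2 (-2.22), Cryab (-2.19), Cnmd (-1.95), Spmip7 (-1.89), Ucn2 (-1.81), Maob (-1.80), Tagln (-1.61), Ncmap (-1.54), Scn7a (-1.37), Shh (-1.34), Spp1 (-1.34), Lyve1 (-1.33), Depdc1 (-1.30), Nnat (-1.29), Mki67 (-1.28), Ckap2 (-1.24), Rrm2 (-1.22), Elovl6 (-1.18), Ccna2 (-1.13), Cd163 (-1.13), Elovl7 (-1.12), Top2a (-1.1), Ccne2 (-1.1), Ccnb1 (-1.05) and Cxcl14 (-1.04). Higher at 7 DPI were Or2h15 (1.90), Pappa (1.85), Rab3b (1.80), Pcdh20 (1.59), Sema3e (1.37), Pth2r (1.27), Ano4 (1.27), Kiaa0040 (1.24), Tmem196 (1.24), Syt11 (1.22), Ttyh1 (1.22), Sox2 (1.20) and Dhh (1.06), all on the log2 scale.

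In 10 of 200 groups of 4 arrays tested by Dixon's criterion, 1 array lay far from the other 3, and chance alone gives about 1 in 20. Contralateral 7 DPI replicate 1 read 7.25 for Tyrp1 against 5.44 to 5.73, and 12.72 for Ncmap against 12.55 to 12.58. Contralateral 3 DPI replicate 4 read 12.89 for Cryab against 12.95 to 12.97, and 6.61 for Ucn2 against 6.04 to 6.13. Contralateral 3 DPI replicate 3 read 6.73 for Rrm2 against 7.35 to 7.48. Among the injured 3 DPI arrays, replicate 4 read 8.06 for Spmip7 against 7.54 to 7.59, and replicate 3 read 8.54 for Ccnb1 against 9.18 to 9.30. Among the injured 7 DPI arrays, replicate 2 read 9.40 for Ccna2 against 9.52 to 9.53, and replicate 1 read 9.07 for Sema3e against 9.57 to 9.67 and 9.93 for Mmp12 against 5.88 to 6.00.

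Of the 18174 probe sets without a single gene symbol, which the main comparison leaves out, 8 were called for the difference, 1 higher and 7 lower.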

How the results depend on the processing

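Of the 70 calls, 69 were kept with the dimmest 30% of genes left out, with probe set means and with a trended robust variance, 68 with median centring, 66 with cyclic loess and 64 with array weights, and 48 were kept in all 16 fits that left out 1 array. Of 2077 recomputed gene values 1906 kept their call, 170 lost it and 1 gained it (Plin1). Among the called genes 0 values changed sign, and sign changes of uncalled genes were not counted. With no fold minimum 140 genes were higher and 172 lower. The injured nerves carried 168 of these, both sides 128 and the contralateral nerves 16. Their effects were positive and larger at 3 DPI for 107 and at 7 DPI for 52, negative and larger at 3 DPI for 40 and at 7 DPI for 33, and opposite for 80. The mitosis list then held 16 and DNA replication 10 genes that were lower. With array weights the contralateral nerves carried 8 genes. Without contralateral 7 DPI replicates 1 and 2 they carried 10, 3 genes had the larger negative effect at 3 DPI, and 0 macrophage genes were called. Without injured 7 DPI replicates 1 and 4, 34 genes were higher, 19 had opposite effects and 1 DNA replication gene was called. The cause of these shifts was not tested.

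Leaving out 1 array gave 15 to 29 genes higher and 41 to 68 lower. The injured nerves carried 42 to 49 genes, both sides 12 to 44 and the contralateral nerves 1 to 11. The larger negative effect at 3 DPI was found for 2 to 9 genes, the larger positive effect at 3 DPI for 19 to 37, and opposite effects for 8 to 24. The called genes were 4 to 11 for mitosis, 1 to 3 for DNA replication and 0 to 1 for macrophages. The counts of 97 genes in all, 44 of both sides and 11 of the contralateral nerves came without contralateral 3 DPI replicate 1, and the lowest total, 58, without its replicate 3.

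With the replicate number as a random block 70 genes were called, all of them shared with the fit without it, and the correlation within same-numbered pairs was 0.033. With it as a fixed block 66 were called, 64 of them shared, and 2 genes had the larger negative effect at 3 DPI. The deviations of same-numbered nerves correlated at -0.081 to 0.223, and those of differently numbered nerves of the same day at -0.193 to 0.106. The ranges overlap, so these values cannot tell whether same-numbered nerves came from the same animal.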
